A study of Homo sapiens with 9 samples.

Results

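The 10 long noncoding RNAs described here are MALAT1, NEAT1, TUG1, GAS5, SNHG1, SNHG5, SNHG15, PVT1, CYTOR and H19, RNAs that make no known functional protein and are often studied in cancer. They were taken by name from the gene names of the deposited table of 58735 genes, and each matched 1 gene identifier. A total of 9 of the 10 passed the filter on low values among 16426 fitted genes, and H19 did not. The study measured RNA in H1299, an established human lung adenocarcinoma cell line, in 3 groups of 3 libraries. KO2 and KO1 are a pair of clones grown from single cells by limiting dilution after CRISPR editing of BCKDK, the kinase that inhibits the branched-chain ketoacid dehydrogenase complex and so slows the breakdown of leucine, isoleucine and valine. Vector cells, whose genotype is labelled wild type, received the lentiCRISPR v2 plasmid by lentivirus and are not described as a clone. Effects of the lost gene and of growing a line from 1 cell cannot be told apart with 1 clone per knockout group. Separate cultures are not named for the libraries of a group, so p-values reflect the spread between libraries alone, and that spread may be technical.

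Levels are FPKM, reads divided by the merged length of all annotated exons of a gene and scaled between libraries by the authors. Comparisons of levels between genes depend on that annotated length. Recovered depth was 16002212 to 17090445 reads per library. BCKDK had 0.628, 0.576 and 0.287 FPKM in KO2, 1.91, 2.06 and 1.67 FPKM in KO1, and 13.7, 12.9 and 17.5 FPKM in Vector, so its level fits the labels in every library. The cell line's markers were mixed: VIM averaged 513, 591 and 702 FPKM in KO2, KO1 and Vector, while EPCAM, CDH1, NKX2-1, SFTPB and SFTPC lay under 0.08 FPKM in each group. KRT8, an epithelial keratin, averaged 16.2 FPKM in KO2, 119.8 in KO1 and 16.2 in Vector. Leukocyte, endothelial and erythroid markers had at most 11 reads in any library, with CD3E and HBB at 0. COL1A1, a fibroblast collagen, averaged 0.419 FPKM in KO2, 0.0126 in KO1 and 0.0401 in Vector. The part of these markers in the results was not tested. KO2 replicate 3 and Vector replicate 3 lay far from the rest of their groups. The chi-square per degree of freedom between libraries was 49.0 and 45.4 for KO2 replicate 3 against the other KO2 libraries, which gave 2.599 between them. It was 52.6 and 44.3 for Vector replicate 3, against 6.84 between the other Vector libraries, and 2.44 to 5.40 within KO1. Mitochondrial genes took 9.77% of the reads of KO2 replicate 3 and 5.48% to 7.44% in the other 8 libraries. The 9 RNAs are given below with and without these libraries, and gene groups and other genes where a count or call moved.

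MALAT1 and NEAT1 are unspliced nuclear RNAs. MALAT1 gathers at nuclear speckles, stores of splicing factors, and NEAT1 is the scaffold of paraspeckles, where it binds proteins such as NONO and SFPQ. GAS5, SNHG1, SNHG5 and SNHG15 are small nucleolar RNA (snoRNA) host genes, whose introns are trimmed to snoRNAs that guide the modification of ribosomal RNA, while the spliced remainder is commonly degraded by nonsense-mediated decay, a pathway tied to translation. Many host genes, like ribosomal protein genes, start transcription in a run of pyrimidines, through which growth signals set the translation of the RNA and its decay. PVT1 is transcribed beside MYC and is often amplified with it in tumours, CYTOR has a partly duplicated relative called MIR4435-2HG, and H19 is an imprinted RNA of fetal tissue that shares its domain with IGF2.

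The start regions of the host genes are shown because the run at the start is a property of their class. RefSeq promoter windows for GRCh38.p14 were matched by symbol for 7 of the 10, and 80 bases are printed, 30 before the first transcribed base and 50 from it on. Capitals mark the unbroken run of C or T that covers the first base. The windows are chr6:85678684-85678763 on the minus strand for SNHG5, chr11:62855836-62855915 on the minus strand for SNHG1, chr1:173868996-173869075 on the minus strand for GAS5 and chr22:30969235-30969314 on the plus strand for TUG1, which is no snoRNA host and is printed beside them.
SNHG5: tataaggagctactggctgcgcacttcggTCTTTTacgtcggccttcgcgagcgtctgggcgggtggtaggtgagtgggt
SNHG1: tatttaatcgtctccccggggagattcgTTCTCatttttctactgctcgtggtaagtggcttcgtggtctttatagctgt
GAS5: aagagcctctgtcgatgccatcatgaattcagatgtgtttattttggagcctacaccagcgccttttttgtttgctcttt
TUG1: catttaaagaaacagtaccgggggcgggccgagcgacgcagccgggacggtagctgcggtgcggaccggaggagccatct
The run was 6 bases long in SNHG5 and 5 in SNHG1, and the first base of the GAS5 and TUG1 windows lay in none. The RefSeq start of GAS5 lies 163 bases upstream of the GENCODE 29 start, so the window depends on the annotation. A run of at least 5 covered the first base in 9.6% of all 35116 windows, in 9 of 21 windows of other snoRNA hosts (42.9%) and in 45 of 63 windows of cytosolic ribosomal protein genes (71.4%). MALAT1 had a run of 11 at its first listed start (chr11:65497708-65497787, plus strand), which lies 50 bases downstream of the GENCODE 29 start, and none at its other listed start, 1357 bases downstream of the GENCODE 29 start. These matches are descriptions of the letters at annotated starts.
MALAT1: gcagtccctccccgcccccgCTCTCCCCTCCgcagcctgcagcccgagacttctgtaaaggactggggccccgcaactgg

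Not all of the 10 ranked high by FPKM in these cells. Among 2303 fitted long noncoding RNA genes ranked by mean FPKM, SNHG5 was 3rd, MALAT1 4th, GAS5 7th, NEAT1 9th, SNHG1 13th, TUG1 21st and SNHG15 39th. PVT1 was at rank 223 and CYTOR at rank 803. The sources used here do not say whether RNAs with a poly(A) tail were selected. The part of such a step in the ranks, above all those of MALAT1 and NEAT1, was not tested. The means over 9 libraries were 81.6 FPKM for SNHG5, 76.7 for MALAT1, 52.7 for GAS5, 38.6 for NEAT1, 28.96 for SNHG1, 20.8 for TUG1, 13.1 for SNHG15, 4.60 for PVT1 and 1.57 for CYTOR. From SNHG5 down to SNHG15, each RNA overlapped the next in this order in its range over libraries. The range of PVT1, 3.89 to 5.17 FPKM, touched that of SNHG15 through KO2 replicate 3 alone. It lay above that of CYTOR, 1.27 to 1.89 FPKM, in every library. By reads the ranges of PVT1 and CYTOR overlapped, at 346 to 509 and 398 to 544 per library. Their annotated exon lengths are 5493 and 17693 bases, so their order by FPKM depends on the annotation.

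**Figure D1:**
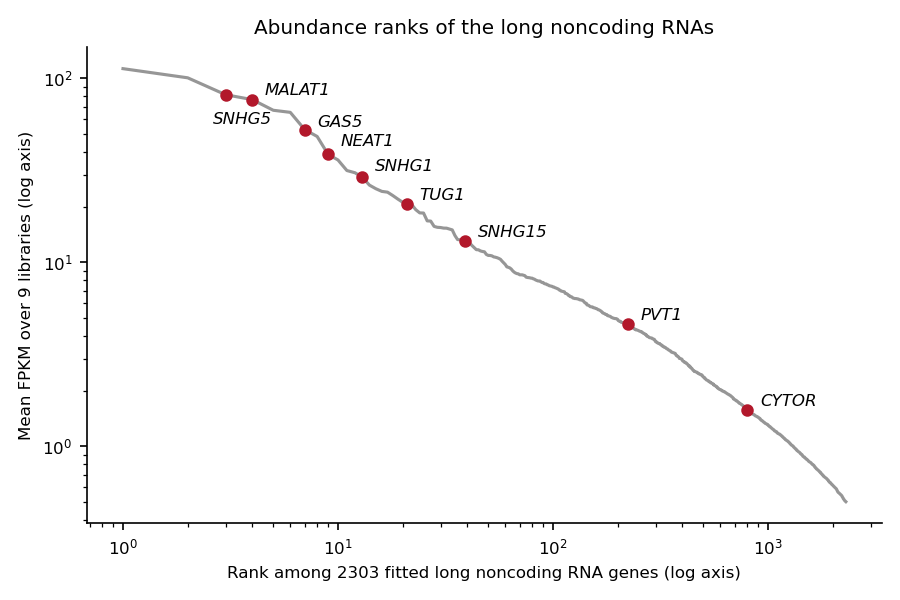
Mean FPKM over 9 libraries (log axis) against rank among 2303 fitted long noncoding RNA genes (log axis), with the grey line for all of these genes and red points for the 9 fitted RNAs described here. SNHG5 and MALAT1 stand at ranks 3 and 4, and CYTOR at rank 803.

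Differences between groups were tested with limma on log2(FPKM + 1), with all 9 libraries in 1 fit and p-values adjusted by the Benjamini-Hochberg method over all 16426 fitted genes, and a gene was called at an adjusted p under 0.05. A log2 difference is given on that scale, which understates changes of low genes, and both knockout comparisons use the same Vector libraries. In KO2 against Vector 1 of the 9 fitted RNAs passed, SNHG1, which fell, beside 27.9% of all genes. The KO1 comparison with Vector also had 1 of 9, TUG1, which fell, beside 34.1% of all genes. Between the clones 4 of 9 passed, MALAT1 and TUG1 higher and SNHG1 and SNHG15 lower in KO2, beside 30.9% of all genes. The share of the 9 was above that of all genes in KO2 against KO1 and under it in both comparisons with Vector. In bulk RNA, fewer cells with an RNA and less of it per cell cannot be told apart. Leaving out KO2 replicate 3 made the counts 2 of 9 in KO2 against Vector, 5 of 9 in KO1 against Vector and 5 of 9 in KO2 against KO1, beside 26.9%, 39.2% and 28.8% of all genes. Leaving out Vector replicate 3 as well made them 3, 6 and 6 of 9, beside 49.5%, 56.8% and 47.7% of all genes. The added calls in that setting were GAS5 and SNHG5 in KO2 against Vector, at -0.26 and -0.51 with limma adjusted p of 0.0293 and 0.00847. For KO1 against Vector they were MALAT1, GAS5, SNHG1, SNHG5 and SNHG15, at -0.76, -0.92, -0.26, -0.65 and 0.40 with limma adjusted p of 7.7e-05 to 0.0250, and between the clones GAS5 and PVT1, at 0.66 and 0.21 with limma adjusted p of 0.000447 and 0.0372. With all libraries, the groups did not overlap for 3 of the 9 RNAs in KO2 against Vector, 7 in KO1 against Vector and 4 in KO2 against KO1, beside 39.0%, 50.1% and 53.6% of all genes, and no difference from other genes was tested. The median log2 difference of the 9 was -0.13 in KO2 against Vector, -0.19 in KO1 against Vector and 0.06 in KO2 against KO1, and the medians of all genes were 0.00, 0.01 and -0.02.

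**Figure D2:**
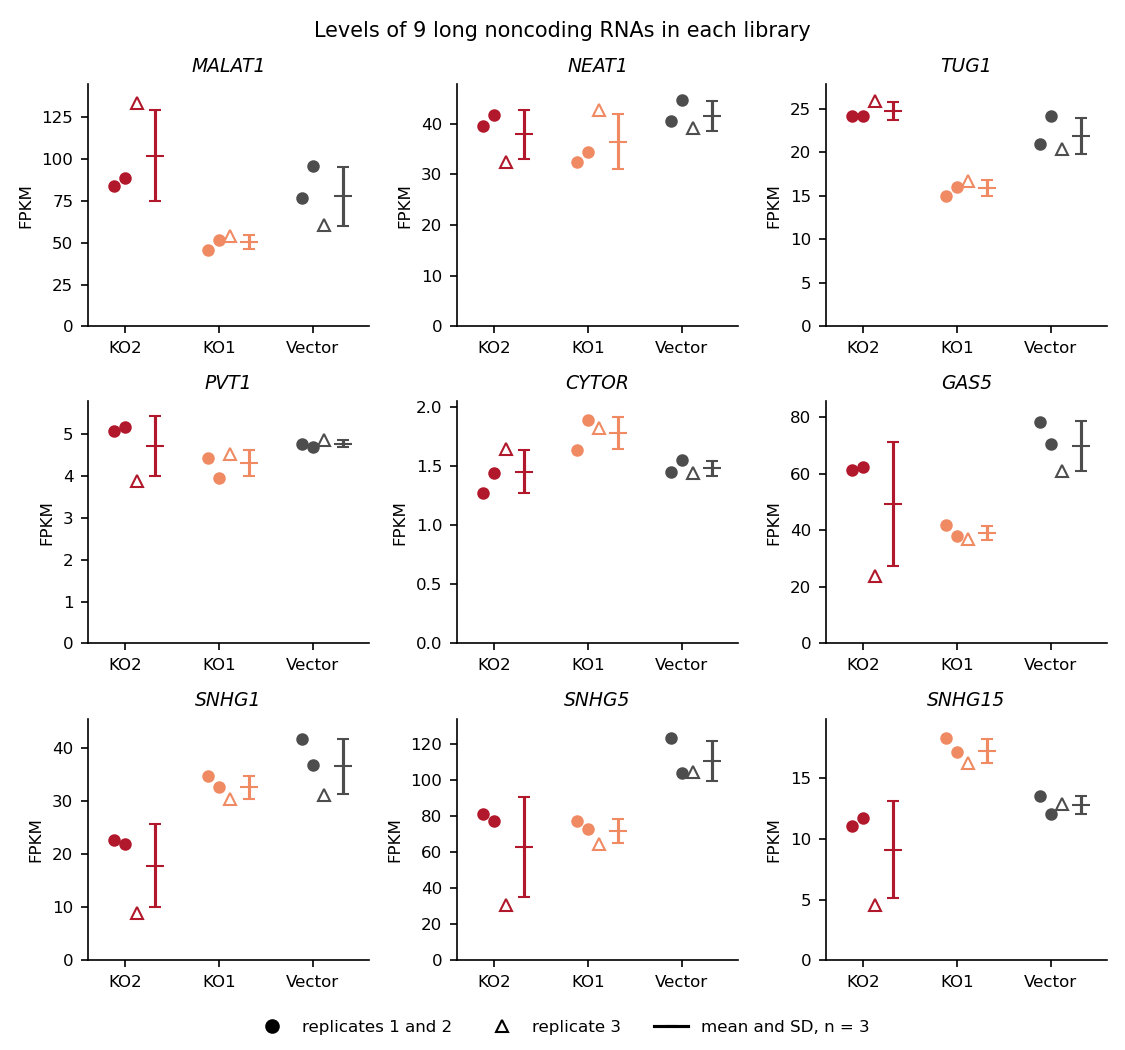
FPKM of the 9 fitted RNAs in each library of KO2, KO1 and Vector, with replicates 1 and 2 as dots, replicate 3 as a triangle, and the mean with SD (n = 3) as a bar beside them. KO2 replicate 3 lies far under the other KO2 libraries in GAS5, SNHG1, SNHG5 and SNHG15 and above them in MALAT1.

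**Figure D3:**
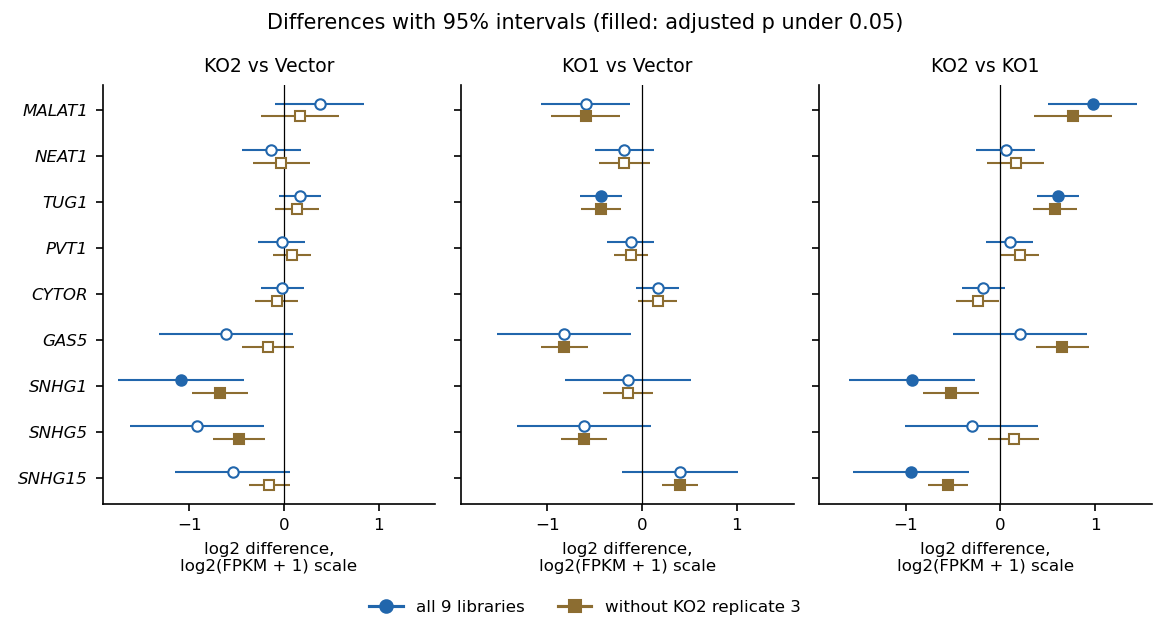
Log2 differences on the log2(FPKM + 1) scale with 95% intervals for KO2 against Vector, KO1 against Vector and KO2 against KO1, with all 9 libraries (circles) and without KO2 replicate 3 (squares), filled where limma's adjusted p was under 0.05. TUG1 and MALAT1 are filled under both settings in KO2 against KO1, at 0.61 and 0.97 with all libraries.

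MALAT1 (chr11:65497688-65506516, plus strand, hg38, GENCODE 29; a single stretch of 8829 exon bases) was higher in KO2 than in KO1. It had 83.9, 88.6 and 133 FPKM in KO2, 45.6, 51.7 and 53.8 FPKM in KO1 and 76.9, 95.6 and 60.6 FPKM in Vector. All KO2 libraries lay above all KO1 libraries, Vector overlapped KO2, and every KO1 library lay under every Vector library. The means were 102 ± 27.2 FPKM in KO2, 50.4 ± 4.29 FPKM in KO1 and 77.7 ± 17.5 FPKM in Vector (SD, n = 3 each). KO2 had 2.02 times the mean of KO1, a log2 difference of 0.97 with SE 0.208 and a 95% interval of 0.51 to 1.44, with a limma adjusted p of 0.00713. Over 21 alternative settings this difference ranged from 0.77 to 1.17 and limma called it in all 21. Against Vector neither clone passed: the log2 difference was 0.38 in KO2, with a limma adjusted p of 0.207, and -0.60 in KO1, with a limma adjusted p of 0.0521. The KO1 difference passed in 9 of 21 alternatives, among them the fit without KO2 replicate 3, at a limma adjusted p of 0.0197. In KO2 against Vector the difference was 0.17 without KO2 replicate 3 and 0.01 with Vector replicate 3 left out as well.

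NEAT1 (chr11:65422774-65445540, plus strand), the upstream neighbour of MALAT1 on chromosome 11, did not pass in any comparison with all 9 libraries. It had 39.6, 41.7 and 32.5 FPKM in KO2, 32.4, 34.3 and 42.8 FPKM in KO1 and 40.6, 44.8 and 39.1 FPKM in Vector. The groups overlapped in each comparison, with 1 low library in KO2 and 1 high library in KO1. The means were 37.9 ± 4.82, 36.5 ± 5.52 and 41.5 ± 2.96 FPKM in KO2, KO1 and Vector (SD, n = 3 each). The 95% intervals of the log2 difference ran from -0.44 to 0.18 in KO2 against Vector, from -0.50 to 0.12 in KO1 against Vector and from -0.25 to 0.37 in KO2 against KO1. The limma adjusted p was 0.516, 0.326 and 0.797 in these comparisons. Of 21 alternatives, library weights alone gave a call, in KO1 against Vector, at -0.29 with a limma adjusted p of 0.0178. Gene-level counts do not separate the short from the long NEAT1 isoform, of which the long one builds paraspeckles.

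Of 18 fitted genes for paraspeckle proteins, 6 fell and 0 rose in KO2 against Vector, 1 rose and 1 fell in KO1 against Vector, and 4 were lower and 0 higher in KO2 than in KO1. That is beside 27.9%, 34.1% and 30.9% of all genes called in either direction, and no difference from other genes was tested. NONO, which pairs with SFPQ on NEAT1, averaged 113 ± 6.69 FPKM in KO2, 145 ± 3.51 FPKM in KO1 and 166 ± 5.50 FPKM in Vector (SD, n = 3 each). It fell in KO2 against Vector by 0.56 on the log2 scale, with a limma adjusted p of 0.00285. PSPC1, its paraspeckle relative, had -0.50 in the same comparison, with a limma adjusted p of 0.0188, and 0.15 in KO1 against Vector, with a limma adjusted p of 0.407. KO2 replicate 3 lay under both other KO2 libraries in 14 of the 18, beside 43.0% of all genes, and without it the paraspeckle counts were 2 up and 5 down for KO2 against Vector, and 2 up and 4 down for KO1 against Vector. NONO and PSPC1 were then at -0.51 and -0.35 in KO2 against Vector, with limma adjusted p of 0.00327 and 0.0176. Of 13 genes for nuclear speckle proteins and MALAT1 processing, KO2 against Vector gave 1 up and 1 down, and 1 rose and 2 fell in KO1 against Vector. Between the clones 3 were higher and 2 lower in KO2. The splicing factors RBM25 and PNN fell in KO1, by 0.87 and 0.42 on the log2 scale with limma adjusted p of 0.0013 and 0.0425, and were called in 20 and 12 of 21 alternatives. PNN turned to 0.066, with a limma adjusted p of 0.639, once the median of its neighbours was subtracted. SON, a core protein of speckles, was higher in KO2 than in KO1, with a log2 difference of 0.45 and a limma adjusted p of 0.0207, and was called in 17 of 21 alternatives.

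TUG1 (chr22:30969245-30979395, plus strand; 10151 exon bases), an RNA found in nucleus and cytoplasm that starts beside MORC2, was lower in KO1 than in both other groups. It had 24.1, 24.2 and 25.9 FPKM in KO2, 14.9, 16.0 and 16.7 FPKM in KO1 and 21.0, 24.2 and 20.4 FPKM in Vector. The highest KO1 library lay under the lowest of the other 6, and KO2 overlapped Vector. The means were 24.7 ± 1.01, 15.9 ± 0.884 and 21.9 ± 2.04 FPKM in KO2, KO1 and Vector (SD, n = 3 each). In KO2 against KO1 the log2 difference was 0.61 with SE 0.099, a 95% interval of 0.39 to 0.83 and a limma adjusted p of 0.00178, and it was called in all 21 alternatives at 0.35 to 0.80. Its log2 difference in KO1 against Vector was -0.44 with SE 0.099, a 95% interval of -0.66 to -0.21 and a limma adjusted p of 0.00884. In KO2 against Vector it was 0.17, with a limma adjusted p of 0.224. The 74 fitted genes within 5 Mb of TUG1 had medians of 0.12 in KO2 against Vector, -0.21 in KO1 against Vector and 0.28 in KO2 against KO1. With the median deviation of these neighbours subtracted in each library before the fit, TUG1 stood at -0.27 in KO1 against Vector. The limma adjusted p was then 0.0983, the 1 alternative of 21 in which the call was lost. The nearest fitted protein-coding genes were MORC2, 947 bases away, at -0.25 in KO1 against Vector with a limma adjusted p of 0.148, and SMTN, 84710 bases away. SMTN, a smooth muscle cytoskeletal protein, rose in KO1 by 0.83 on the log2 scale with a limma adjusted p of 0.00181, and had -0.61 in KO2 against Vector with a limma adjusted p of 0.0105. A stretch of 14.4% of the TUG1 exon bases is shared with other annotated genes, more than for most of the 10.

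Among the snoRNA hosts, SNHG1 (chr11:62851988-62855914, minus strand) was lower in KO2 than in both other groups. It had 22.7, 22.0 and 8.86 FPKM in KO2, 34.7, 32.6 and 30.4 FPKM in KO1 and 41.6, 36.7 and 31.2 FPKM in Vector. Every KO2 library lay under every library of the other groups, and KO1 overlapped Vector. The means were 17.8 ± 7.78, 32.6 ± 2.17 and 36.5 ± 5.21 FPKM in KO2, KO1 and Vector (SD, n = 3 each). In KO2 against Vector the log2 difference was -1.09 with SE 0.296, a 95% interval of -1.76 to -0.42 and a limma adjusted p of 0.0234. Without KO2 replicate 3 it was -0.67, with a limma adjusted p of 0.00723, and over 21 alternatives it ranged from -1.40 to -0.67 and passed in 17, with a limma adjusted p of 0.000421 to 0.0805. The 4 in which it did not pass were no filter on low values, a fit limited to KO2 and Vector, and the fits without Vector replicate 1 and without Vector replicate 2, at limma adjusted p of 0.0581, 0.0595, 0.0805 and 0.0632. In KO2 against KO1 it was -0.94 with a limma adjusted p of 0.0389, passing in 12 of 21 alternatives, and in KO1 against Vector -0.15 with a limma adjusted p of 0.728. SLC3A2, which encodes the heavy chain of amino acid transporters and starts 188 bases from SNHG1, had 1.28 in KO1 against Vector, with a limma adjusted p of 0.00117, and -0.68 in KO2 against Vector, with a limma adjusted p of 0.0305 and a call in 15 of 21 alternatives.

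SNHG15 (chr7:44983023-44986961, minus strand) was lower in KO2 than in KO1. It had 11.1, 11.8 and 4.54 FPKM in KO2, 18.3, 17.1 and 16.3 FPKM in KO1 and 13.5, 12.04 and 12.9 FPKM in Vector. The 3 groups did not overlap, with KO1 highest and KO2 lowest. The means were 9.12 ± 3.98, 17.2 ± 1.01 and 12.8 ± 0.756 FPKM in KO2, KO1 and Vector (SD, n = 3 each). In KO2 against KO1 the log2 difference was -0.94 with SE 0.271, a 95% interval of -1.55 to -0.33 and a limma adjusted p of 0.0267, and it passed in 13 of 21 alternatives. It was -0.54 in KO2 against Vector and 0.40 in KO1 against Vector, with limma adjusted p of 0.168 and 0.284. Without KO2 replicate 3, whose level was 0.398 of the mean of the other KO2 libraries, the SE was smaller, 0.0834 in KO1 against Vector, where it was 0.271 with all libraries. KO1 against Vector then passed at the same 0.40, with a limma adjusted p of 0.00705, and KO2 against Vector stood at -0.15, with a limma adjusted p of 0.264. Over 21 alternatives SNHG15 was called in 4 in KO1 against Vector and in 0 in KO2 against Vector.

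SNHG5 (chr6:85660950-85678748, minus strand), the highest of the 10 by mean FPKM, was lower than Vector in both clones by value, without passing. It had 80.8, 76.9 and 30.6 FPKM in KO2, 77.5, 73.0 and 64.4 FPKM in KO1 and 123, 104 and 104 FPKM in Vector. All 6 knockout libraries lay under all 3 Vector libraries, and KO2 overlapped KO1. The means were 62.8 ± 27.9, 71.6 ± 6.64 and 110.3 ± 11.0 FPKM in KO2, KO1 and Vector (SD, n = 3 each). The log2 difference was -0.92 in KO2 against Vector, with a limma adjusted p of 0.0554, and -0.62 in KO1 against Vector, with a limma adjusted p of 0.160. Without KO2 replicate 3 it was -0.47 in KO2 against Vector, with a limma adjusted p of 0.0210, and -0.62 in KO1 against Vector, with a limma adjusted p of 0.00282. Over 21 alternatives SNHG5 was called in 8 in KO2 against Vector and in 4 in KO1 against Vector. SYNCRIP, the nearest fitted protein-coding gene at 17158 bases, an RNA-binding protein, fell in both clones, by 0.71 in KO2 and 0.79 in KO1 on the log2 scale, with limma adjusted p of 0.00441 and 0.00193.

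GAS5 (chr1:173863900-173868882, minus strand), named for its rise in growth-arrested cells, was lower in KO1 than in Vector by value. It had 61.2, 62.6 and 23.9 FPKM in KO2, 41.7, 38.1 and 37.0 FPKM in KO1 and 78.5, 70.5 and 60.9 FPKM in Vector. All KO1 libraries lay under all Vector libraries, and KO2 overlapped both groups. The means were 49.2 ± 22.0, 39.0 ± 2.48 and 69.9 ± 8.84 FPKM in KO2, KO1 and Vector (SD, n = 3 each). The log2 difference in KO1 against Vector was -0.82 with SE 0.314, and did not pass, at a limma adjusted p of 0.0709. Once KO2 replicate 3 was left out it was -0.82 with SE 0.107 and a limma adjusted p of 0.000794, and KO2 against KO1 was then 0.66 with a limma adjusted p of 0.00534, against 0.21 with all libraries. In KO2 against Vector it was -0.61 with all libraries and -0.17 without KO2 replicate 3, with limma adjusted p of 0.179 and 0.345. Over 21 alternatives GAS5 was called in 7 in KO1 against Vector, 3 in KO2 against KO1 and 1 in KO2 against Vector. GAS5-AS1, on the opposite strand, shares 42 exon bases with GAS5 and did not pass in any comparison.

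KO2 replicate 3 was low in all 4 hosts at once, with levels of 0.386 of the mean of the other KO2 libraries for GAS5, 0.397 for SNHG1, 0.389 for SNHG5 and 0.398 for SNHG15. The ratio was 0.759 for PVT1, 0.799 for NEAT1, 1.07 for TUG1, 1.21 for CYTOR and 1.54 for MALAT1. Other snoRNA hosts lay under both other KO2 libraries in 19 of 20 cases, with a median of -0.71 on the log2(FPKM + 1) scale, and cytosolic ribosomal protein genes in 77 of 79, with a median of -0.63. The share was 43.0% among all genes, with a median of 0.00. In KO1 replicate 3 ribosomal protein genes were also under both other libraries in 67 of 79 cases, with a median of -0.14, and in Vector replicate 3 in 30 of 79. Among all genes these shares were 40.5% in KO1 replicate 3 and 43.6% in Vector replicate 3. The mitochondrial share of reads, given above, was highest in KO2 replicate 3, and its part in these levels was not tested.

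**Figure D4:**
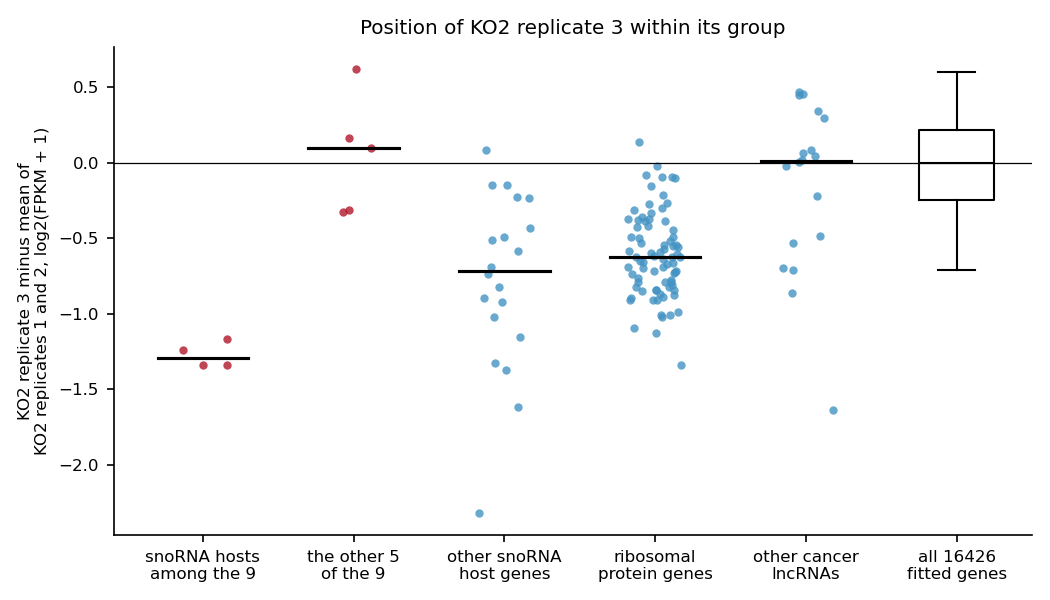
Level in KO2 replicate 3 minus the mean of KO2 replicates 1 and 2 on the log2(FPKM + 1) scale, 1 point per gene, with black lines for medians and a box for all 16426 fitted genes (median, quartiles, and whiskers at the 5th and 95th percentile). The 4 snoRNA hosts described here lie lowest by median, and the medians are -0.71 for other hosts, -0.63 for ribosomal protein genes and 0.00 for all genes.

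The other snoRNA hosts were taken from a list of 26 genes outside the 10, of which 20 were fitted. KO2 against Vector gave 6 that fell and 0 that rose, with a list median of -0.35. KO1 against Vector gave 2 that rose and 1 that fell, with a list median of 0.21. In KO2 against KO1 4 hosts were lower and 1 higher, with a list median of -0.48. Over all genes the called shares were 27.9%, 34.1% and 30.9%, and the difference of these hosts from other genes was not tested. The 6 that fell in KO2 were SNHG3, SNHG6, SNHG8, SNHG12, SNHG17 and ZFAS1, at -0.89, -0.87, -1.29, -0.99, -0.40 and -0.66, with limma adjusted p of 0.0119 to 0.0432. The call of SNHG17 in KO2 against Vector held in 8 of 21 alternatives. SNHG8 averaged 29.4 ± 13.8 FPKM in KO2, 47.9 ± 5.01 FPKM in KO1 and 67.8 ± 9.58 FPKM in Vector (SD, n = 3 each). Leaving out KO2 replicate 3 gave 5 down and 0 up in KO2 against Vector and 4 up and 4 down in KO1 against Vector. That is beside 26.9% and 39.2% of all genes. SNHG8 was then at -0.85 in KO2 against Vector, with a limma adjusted p of 0.00553. In KO1, DANCR and SNHG17 rose, by 1.12 and 0.82 on the log2 scale with limma adjusted p of 0.000122 and 0.00128, and SNHG3 fell by 0.74 with a limma adjusted p of 0.0259 and a call in 15 of 21 alternatives. DANCR, an RNA that restrains differentiation, had 8.79, 7.13 and 7.08 FPKM in KO2, 18.9, 18.7 and 18.4 FPKM in KO1 and 9.31, 7.39 and 7.496 FPKM in Vector. Its KO1 libraries stood above all others, and KO2 overlapped Vector. The difference of DANCR in KO2 against KO1 was -1.19 and that of SNHG17 was -1.22, with limma adjusted p of 0.000114 and 0.000162.

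Of 15 genes for nonsense-mediated decay factors, which remove many spliced host RNAs, 1 rose and 2 fell in KO2 against Vector, 4 rose and 2 fell in KO1 against Vector, and 8 were lower and 0 higher in KO2 than in KO1. With KO2 replicate 3 left out 2 rose and 2 fell in KO2 against Vector, 8 rose and 2 fell in KO1 against Vector, and 8 were again lower and 0 higher in KO2 than in KO1. SMG9, which regulates the kinase SMG1 of this pathway, had 9.17, 8.85 and 7.43 FPKM in KO2, 19.4, 18.7 and 18.3 FPKM in KO1 and 28.5, 27.3 and 37.2 FPKM in Vector. The 3 groups of SMG9 did not overlap, and it fell by 1.75 in KO2 and by 0.68 in KO1 on the log2 scale, with limma adjusted p of 2.47e-05 and 0.00394. SMG5, which leads targeted RNA to degradation, rose in KO1 by 0.88 on the log2 scale with a limma adjusted p of 0.00327. Of 79 cytosolic ribosomal protein genes, KO2 against Vector gave 2 that rose and 6 that fell, 9 rose and 6 fell in KO1 against Vector, and 1 was higher and 7 lower in KO2 than in KO1. With KO2 replicate 3 left out the ribosomal protein counts were 8 up and 5 down in KO2 against Vector, 19 up and 9 down in KO1 against Vector, and 3 up and 6 down in KO2 against KO1. The shares of all genes called, given above for both settings, were not tested against those of these lists.

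PVT1 (chr8:127794533-128101253, plus strand) did not pass in any comparison with all 9 libraries. It had 5.08, 5.17 and 3.89 FPKM in KO2, 4.44, 3.96 and 4.53 FPKM in KO1 and 4.76, 4.70 and 4.86 FPKM in Vector. KO2 overlapped both groups, and the KO1 libraries lay under the Vector libraries by a narrow margin. The means were 4.71 ± 0.715, 4.31 ± 0.306 and 4.77 ± 0.0804 FPKM in KO2, KO1 and Vector (SD, n = 3 each), from 346 to 509 reads per library. The 95% interval of the log2 difference was -0.27 to 0.23 in KO2 against Vector, -0.37 to 0.13 in KO1 against Vector and -0.15 to 0.35 in KO2 against KO1, with limma adjusted p of 0.902, 0.434 and 0.542. Of 20 alternatives, 2 gave a call in KO2 against KO1, library weights at 0.23, with a limma adjusted p of 0.00724, and both replicate 3 libraries left out at 0.21, with a limma adjusted p of 0.0372.

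MYC, the transcription factor gene that ends 53099 bases before PVT1, had lower levels than Vector in both clones. It had 53.6, 50.9 and 26.1 FPKM in KO2, 63.5, 57.1 and 54.7 FPKM in KO1 and 86.3, 79.4 and 97.4 FPKM in Vector. All knockout libraries lay under all Vector libraries, and each KO2 library lay under each KO1 library. MYC fell in KO2 against Vector by 1.06 on the log2 scale, with SE 0.240 and a limma adjusted p of 0.0107, and it was called in all 21 alternatives, at -1.24 to -0.65. For KO1 against Vector MYC had -0.58 with a limma adjusted p of 0.0930, and without KO2 replicate 3 the limma adjusted p was 0.00334. The KO1 difference was called in 6 of 21 alternatives, at -0.73 to -0.22, with a limma adjusted p of up to 0.582. The difference between MYC and PVT1 within a comparison was not tested. Of the 44 fitted genes within 5 Mb of PVT1, 4 rose and 2 fell in KO2 against Vector, with a median of 0.08. In KO1 against Vector 4 rose and 16 fell, with a median of -0.35, and in KO2 against KO1 17 were higher and 2 lower, with a median of 0.40. Over all genes the called shares were 27.9%, 34.1% and 30.9%, and the difference of these neighbours from other genes was not tested. A total of 11 of the 44 had a higher log2 difference than PVT1 in KO1 against Vector. With the neighbours' median deviation subtracted in each library before the fit, PVT1 stood at 0.24 in KO1 against Vector, against -0.12 without that step. DNA copy number was not measured here, and its part was not tested.

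**Figure D5:**
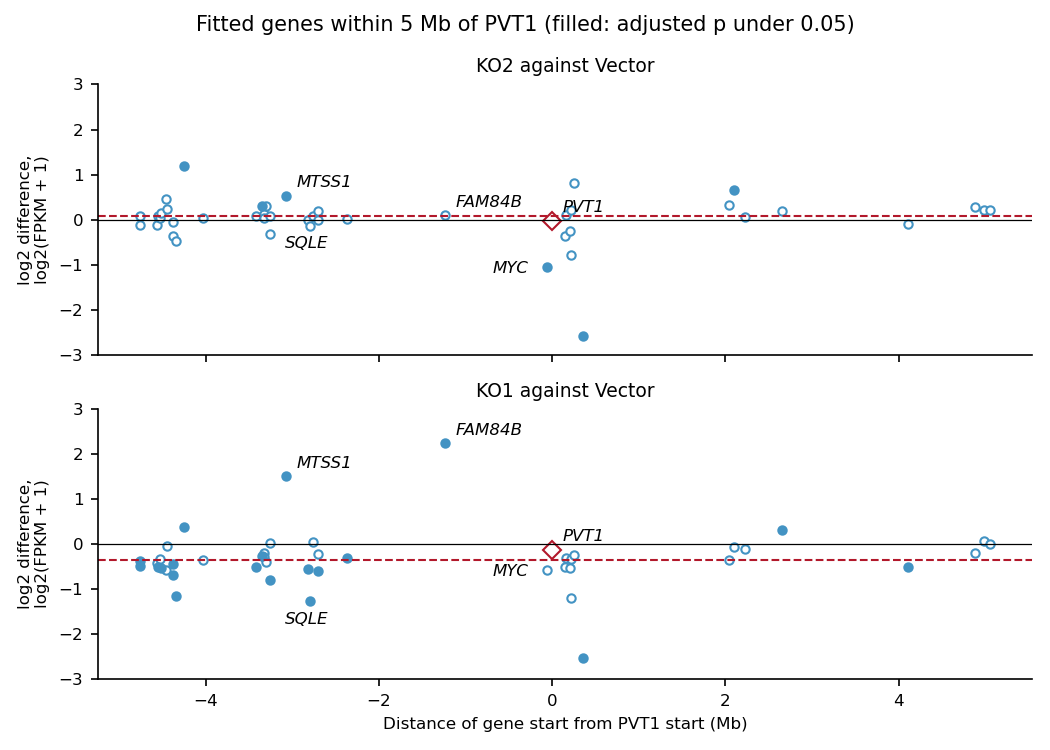
Log2 difference on the log2(FPKM + 1) scale of each fitted gene within 5 Mb of PVT1 against the distance of its start from the PVT1 start in Mb, for KO2 against Vector (top) and KO1 against Vector (bottom), filled where limma's adjusted p was under 0.05. The dashed line is the neighbours' median, 0.08 in KO2 and -0.35 in KO1, and the diamond is PVT1.

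Of 24 genes listed for the 8q24 region, 13 were fitted. In KO2 against Vector 1 rose and 1 fell, and in KO1 against Vector 3 rose and 5 fell. That is beside 27.9% and 34.1% of all genes called, and no difference from other genes was tested. FAM84B had 2.16, 2.10 and 2.08 FPKM in KO2, 12.7, 13.5 and 12.2 FPKM in KO1 and 1.89, 1.96 and 1.86 FPKM in Vector. It rose in KO1 by 2.25 on the log2 scale with a limma adjusted p of 3.56e-07, and had 0.10 in KO2 against Vector with a limma adjusted p of 0.413. SQLE, the squalene epoxidase of cholesterol synthesis, averaged 44.1 ± 2.78 FPKM in KO2, 19.4 ± 0.867 FPKM in KO1 and 48.5 ± 4.11 FPKM in Vector (SD, n = 3 each). It fell in KO1 by 1.28 on the log2 scale with a limma adjusted p of 2.14e-05. MTSS1, an actin-binding membrane-shaping protein, rose in KO2 by 0.53 and in KO1 by 1.51 on the log2 scale, with limma adjusted p of 0.00574 and 1.08e-05.

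CYTOR (chr2:87454781-87636740, plus strand), a cytoplasmic RNA linked to cytoskeletal genes, did not pass in any comparison with all 9 libraries. It had 1.27, 1.44 and 1.64 FPKM in KO2, 1.63, 1.89 and 1.82 FPKM in KO1 and 1.45, 1.55 and 1.44 FPKM in Vector. KO2 overlapped both groups and KO1 lay above Vector. The means were 1.45 ± 0.184, 1.78 ± 0.135 and 1.48 ± 0.0633 FPKM in KO2, KO1 and Vector (SD, n = 3 each), from 398 to 544 reads per library. The log2 difference was -0.02 in KO2 against Vector, 0.16 in KO1 against Vector and -0.18 in KO2 against KO1, with limma adjusted p of 0.907, 0.242 and 0.203. Of 20 alternatives, library weights alone gave a call, in KO2 against KO1, at -0.23 with a limma adjusted p of 0.0106.

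MIR4435-2HG, the relative of CYTOR on the same chromosome, rose in both clones. It had 4.12, 4.32 and 5.14 FPKM in KO2, 4.15, 4.28 and 4.24 FPKM in KO1 and 2.90, 3.02 and 2.89 FPKM in Vector. All knockout libraries lay above all Vector libraries, and the clones overlapped. The log2 difference was 0.48 in KO2 against Vector and 0.41 in KO1 against Vector, with limma adjusted p of 0.00554 and 0.0104, and 0.08 in KO2 against KO1 with a limma adjusted p of 0.588. The pair shares part of its sequence. Over 241 aligned bases of their RefSeq start windows CYTOR and MIR4435-2HG had 0 differences, and 100 of these bases are printed to show it, from chr2:87455318-87455417 on the plus strand and chr2:111495112-111495211 on the minus strand (GRCh38.p14). The printed CYTOR stretch ends before the first RefSeq base of CYTOR at position 87455427, and lies inside the longer GENCODE 29 gene.
CYTOR: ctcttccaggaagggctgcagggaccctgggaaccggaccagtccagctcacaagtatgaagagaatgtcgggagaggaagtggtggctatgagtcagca
MIR4435-2HG: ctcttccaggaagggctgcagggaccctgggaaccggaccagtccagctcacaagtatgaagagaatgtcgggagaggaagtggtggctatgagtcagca
Both loci also hold a gene for the same mature microRNA, printed with its seed, bases 2 to 8, in capitals.
hsa-miR-4435: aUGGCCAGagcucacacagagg
Of the 50-base words in annotated CYTOR transcripts, 24.9% also occur in transcripts of other genes, 16.0% in MIR4435-2HG. The share was 10.03% for TUG1, 0% for GAS5 and 1.42% to 5.95% for the other RNAs. The counting of reads that match both genes was not given in the sources used here, so the part of both levels that comes from shared stretches is uncertain.

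H19 (chr11:1995176-2001470, minus strand) had 0 reads in all 9 libraries. At these depths 3 reads would have been 0.0578 to 0.0649 FPKM, so a level under that was not detectable, and no difference was tested. Counts cover counting error only. IGF2, the growth factor gene 127642 bases away in the same imprinted domain, had 1.96, 1.77 and 3.32 FPKM in KO2, 0.0180, 0.0176 and 0.0254 FPKM in KO1 and 0.0261, 0.0846 and 0.236 FPKM in Vector. All KO2 libraries lay above the other 6. IGF2 had 2 to 375 reads per library, so its KO1 levels rest on few reads. It rose in KO2 against Vector by 1.56 on the log2 scale, with SE 0.174 and a limma adjusted p of 0.000239, and was higher in KO2 than in KO1 by 1.69, with a limma adjusted p of 0.000145. Both differences were called in all 20 alternatives, and without KO2 replicate 3 they were 1.37 and 1.49. Its KO1 difference from Vector was -0.12, with a limma adjusted p of 0.618. Another annotated gene named IGF2, which overlaps this one on the same strand, had 0 FPKM in all 9 libraries. MRPL23, a mitochondrial ribosomal protein gene on the other side, rose in both clones, by 1.11 in KO2 and 0.83 in KO1 on the log2 scale, with limma adjusted p of 0.00351 and 0.0118. The list for this domain and the proteins that bind IGF2 mRNA had 11 fitted genes. KO2 against Vector gave 3 up and 1 down, and 6 rose and 0 fell in KO1 against Vector. That is beside 27.9% and 34.1% of all genes called, and no difference from other genes was tested.

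Among 18 fitted long noncoding RNAs of a list of 38 others studied in cancer, 0 rose and 4 fell in KO2 against Vector, 2 rose and 5 fell in KO1 against Vector, and 2 were higher and 4 lower in KO2 than in KO1. LINC01234 had 1.58, 1.95 and 2.40 FPKM in KO2, 0.196, 0.178 and 0.290 FPKM in KO1 and 4.201, 4.39 and 4.01 FPKM in Vector. Its 3 groups did not overlap, and it fell in KO2 by 0.81 and in KO1 by 2.09 on the log2 scale, with limma adjusted p of 0.00119 and 3.4e-06. FTX and FOXD2-AS1 fell in both clones, by 0.53 and 0.50 in KO2, with limma adjusted p of 0.0137 and 0.0278, and by 0.52 and 0.64 in KO1, with limma adjusted p of 0.0123 and 0.00821. FTX was called in 17 of 20 alternatives in each clone, and FOXD2-AS1 in 14 of 20 in KO2, at a limma adjusted p of up to 0.0933, and 20 of 20 in KO1. OIP5-AS1, a cytoplasmic RNA known for binding the HuR protein, fell in KO1 by 0.68, with a limma adjusted p of 0.0113, and MIR22HG, the host gene of miR-22, rose in KO1 by 0.85, with a limma adjusted p of 0.0143. Over all 2303 fitted long noncoding RNA genes limma called 21.5% in KO2 against Vector, 25.6% in KO1 against Vector and 21.5% in KO2 against KO1.

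The members differed in how they varied together across the 9 libraries, which share the 3 groups and the outlying replicates, so correlations are descriptions only. MALAT1 and TUG1 had a Pearson r of 0.942 on the log2(FPKM + 1) scale, GAS5 and SNHG5 of 0.912, SNHG1 and SNHG15 of 0.888, and MALAT1 and SNHG15 of -0.897. Among 7478 genes that averaged 5 FPKM or more, the closest patterns were MGA (0.987) and TTC3 (0.984) for MALAT1, and ADAM22 (0.984) and UTP20 (0.983) for TUG1. For the hosts they were SRSF5 (0.996) and ERH (0.988) for GAS5, RPL19 (0.991) and NOP10 (0.979) for SNHG5, AL050341.2 (0.984) and UBE2T (0.979) for SNHG1, and CTGF (0.993) and CFAP20 (0.987) for SNHG15. NEAT1 had no pattern closer than ZNF354B (0.839) and MIRLET7D (0.837), PVT1 came closest to NXT1 (0.934) and POP5 (0.904), and CYTOR to SPIRE1 (0.930) and AAK1 (0.924).

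Some exon bases of the 10 are shared with other annotated genes, from 1.16% in GAS5 to 15.3% in SNHG1. All 22 same-strand and all 3 opposite-strand genes that lie wholly inside the exons of the 9 fitted RNAs were listed at 0 FPKM. The strand setting and the treatment of reads that overlap more than 1 gene were not given in the sources used here, and their part in these levels was not tested.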

How the data were processed

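RNA of 9 H1299 libraries was sequenced on an Illumina NovaSeq after a NEBNext Ultra RNA library preparation from TRIzol total RNA, per the labels' protocols. The submitters' processing notes name featureCounts 1.5.0-p3, HISAT2 2.0.5, CASAVA 1.6 and hg38, and options were not given in the sources used here. The deposited values are FPKM, made by the authors from gene-level reads. All gene identifiers were found in GENCODE 29, from which positions and exon lengths were taken. FPKM times exon length gave whole reads for 100% of values in every library within 0.02 reads. Values were fitted as log2(FPKM + 1) for genes that averaged 0.5 FPKM or more, with limma 3.58.1 in R 4.3.3 and a trended prior, group as the only term and Benjamini-Hochberg adjustment within each comparison. The script was tested on simulated data. Sequences came from RefSeq tables for GRCh38.p14. Exon overlaps and 50-base words came from GENCODE 29.

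The 10 members and the 8 gene lists were chosen with earlier results of these data known, and so were the tests. Named genes are the members, MYC, MIR4435-2HG, BCKDK, neighbouring protein-coding genes, the 2 closest patterns per member, and from each list up to 4 called genes per direction. Several that this rule allows are given only as counts. Some are not reported here. A total of 21 alternatives covered pseudocount, filters, scaling, prior, library weights, limma-voom on recovered reads, a replicate block, neighbours' medians and left-out libraries. Same-numbered libraries did not vary together (correlations of -0.20 to 0.14), so replicate numbers were not taken as pairs. limma-voom on recovered reads called 4975 genes in KO2 against Vector, 5978 in KO1 against Vector and 5501 in KO2 against KO1. limma's weights, p-values and intervals count libraries, not clones.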

Additional observations from a re-analysis of the deposited data

Results flagged for a closer look

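A total of 4 of the 9 fitted RNAs were picked out because their effects against Vector differed between the clones, by limma's test of KO2 against KO1. The log2 difference between the clones was 0.974 for MALAT1, with a limma adjusted p of 0.00713, and 0.610 for TUG1, with a limma adjusted p of 0.00178. It was -0.937 for SNHG1, with a limma adjusted p of 0.0389, and -0.942 for SNHG15, with a limma adjusted p of 0.0267. The KO2 libraries lay wholly above those of KO1 for MALAT1 and TUG1 and wholly under them for SNHG1 and SNHG15. These groups did not overlap for 53.6% of all genes. Without KO2 replicate 3 all 4 passed, at 0.77, 0.58, -0.52 and -0.55 for MALAT1, TUG1, SNHG1 and SNHG15. Over 21 alternatives MALAT1 and TUG1 passed in all 21, SNHG1 in 12 and SNHG15 in 13. Neither SNHG1 nor SNHG15 passed with no filter, with library-size or upper-quartile scaling, or with these groups fitted alone. The same held without KO1 replicate 1, without KO1 replicate 2 and without KO1 replicate 3. Without Vector replicate 1, and without Vector replicate 2, only 1 of SNHG1 and SNHG15 passed. With 1 clone per group, this is a difference between these lines. Single outlying libraries were not tested within groups of 3.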

How the results depend on the processing

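MALAT1 and TUG1 in KO2 against KO1 were called in all 21 alternatives. Genes called over all genes, in KO2 against Vector, KO1 against Vector and KO2 against KO1, numbered 4586, 5609 and 5079. They were 2407, 2940 and 2839 at a mean of at least 5 FPKM, where fewer genes are tested, 10061, 10779 and 9764 with library weights, and 8138, 9335 and 7834 with Vector replicate 3 and KO2 replicate 3 both left out. A fit of the groups compared alone gave 2963 in KO2 against Vector. With each library left out in turn they ranged from 3203 to 6531, from 3705 to 7367 and from 3337 to 6756. The median of all genes moved to -0.10 in KO1 against Vector and 0.12 in KO2 against KO1 with upper-quartile scaling, so directions are relative to that. Higher and lower calls were then 1865 and 3592 in KO1 against Vector, where they had been 2865 and 2744, and 3382 and 1577 in KO2 against KO1, where they had been 2386 and 2693. Scaling by library size gave 2214 and 3288, and 2904 and 1935.

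Of the 9 RNAs, 1 was called in KO2 against Vector. The count was 0 with no filter, 2 at 5 FPKM, 0 with these groups alone and 2 with library weights. It was 2 with limma-voom and 3 with both replicate 3 libraries left out, and leaving out 1 library gave 0 to 2. In the order of the named settings, 4747, 2407, 2963, 10061, 4975 and 8138 of all genes were called. With no filter and at 5 FPKM the number of tested genes differed from 16426. At 5 FPKM 7478 genes were tested. With no filter, all of the 58735 genes were tested except 23132 at 0 in every library. PVT1 and CYTOR, whose means were under 5 FPKM, were not tested at 5 FPKM. In KO1 against Vector 1 of the 9 was called. The count was 2 at 5 FPKM, 2 with library-size scaling, 3 with upper-quartile scaling and 5 with these groups alone. It was 6 with library weights, 3 with limma-voom, 6 with both left out and 0 with neighbours' medians subtracted. Leaving out 1 library gave 1 to 5. In the order of the named settings, 2940, 5502, 5457, 5529, 10779, 5978, 9335 and 4793 of all genes were called. In KO2 against KO1 4 of the 9 were called. The count was 2 with no filter, with library-size scaling, with upper-quartile scaling and with these groups alone. It was 7 with library weights, and leaving out 1 library gave 2 to 5. In the order of the named settings, 4903, 4839, 4959, 6333 and 9764 of all genes were called. With the replicate block limma called 2 of the RNAs in KO2 against Vector, 2 in KO1 against Vector and 4 in KO2 against KO1, and 3953, 4911 and 4428 of all genes, but the numbers pair nothing here. The causes were not tested.

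Some differences changed sign. In KO2 against Vector, leaving out 1 library gave -0.075 to 0.033 for CYTOR and -0.082 to 0.086 for PVT1. Upper-quartile scaling gave 0.0066 for CYTOR and 0.013 for PVT1, neighbours subtracted 0.092 for CYTOR, both left out 0.097 for PVT1, and library weights 0.097 for PVT1 and -0.052 for MALAT1. In KO2 against KO1, leaving out 1 library gave -0.020 to 0.66 for GAS5, -0.023 to 0.17 for NEAT1, -0.54 to 0.14 for SNHG5 and -0.0016 to 0.13 for MIR4435-2HG. Both left out gave 0.14 for SNHG5 and -0.0016 for MIR4435-2HG, library weights 0.078 for SNHG5, and neighbours subtracted -0.012 for NEAT1. With neighbours subtracted PVT1 was 0.24 in KO1 against Vector and -0.30 in KO2 against KO1, and PNN 0.066 in KO1 against Vector. Over the alternatives other snoRNA hosts fell in 1 to 8 cases and rose in 0 to 2 in KO2 against Vector, and rose in 2 to 9 and fell in 0 to 7 in KO1 against Vector. Paraspeckle genes fell in 3 to 9 and rose in 0 to 4 in KO2 against Vector. Decay factors were lower in 4 to 13 and higher in 0 to 1 in KO2 against KO1, and rose in 3 to 10 and fell in 1 to 2 in KO1 against Vector. Ribosomal protein genes rose in 4 to 32 and fell in 3 to 13 in KO1 against Vector, and rose in 1 to 29 and fell in 2 to 14 in KO2 against Vector.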
